A study of Mus musculus with 23 samples.

Results

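The RNA of 10 genes of the Wnt and beta-catenin pathway was compared between Nedd8-deficient and control cultures of mouse hippocampal neurons. The genes are *Ctnnb1*, *Gsk3b*, *Apc*, *Axin1*, *Axin2*, *Nkd1*, *Lef1*, *Tcf7*, *Tcf7l1* and *Tcf7l2*, found by matching their symbols to the Ensembl identifiers of the count tables, which list 56941 genes. All 10 were measured and all 10 passed the filter on low counts, as did 14488 genes of the whole table. They cover the core of the pathway and some of its transcriptional readouts. The rule that picks them names genes and no measured value. The genes and all lists below were nevertheless chosen with earlier results of these data known. Their shares beside those of all genes are therefore descriptions and not a neutral comparison.

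Hippocampal neurons were cultured from homozygous Nedd8cKO mice at postnatal day 0, in which LoxP sites flank exons of *Nedd8*. The day after plating they received a lentivirus that carried red fluorescent protein alone (RFP) or the CRE recombinase fused to RFP (CRE), both under the Synapsin1 promoter, which is active in neurons. Both groups therefore have the floxed genotype and a virus, and no library came from uninfected or from wild type neurons. RNA was taken after 12 days in vitro per the labels, while the text of the study gives this day in some places and a later one in others. Of the 23 libraries, 12 CRE and 11 RFP, the comparison used 11 CRE and 10 RFP libraries, without Cre3-3 and RFP3-2. A name such as Cre1-3 stands for replicate 3 of Cre1 in the labels. The number 1 is read here as that of a culture, which neither the labels nor the study say in words. There are 3 such numbers in each group. The study counts as many animals or biological replicates as there are such numbers, so libraries of 1 number may come from the same animal or culture. The p-values treat each library as a replicate and measure the spread between libraries, part of which may be technical. Fits on sums per culture are among the alternatives.

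Beta-catenin, the protein of *Ctnnb1*, binds cadherins at the membrane and also carries the Wnt signal to the nucleus. Without Wnt, a complex of APC, AXIN and the kinase GSK3 marks it for a ubiquitin ligase that recognizes it through beta-TrCP. This ligase belongs to the cullin-RING family, which is active when its cullin carries Nedd8. Beta-catenin that escapes enters the nucleus and binds TCF and LEF factors, and these switch on target genes, among them *Axin2* and *Nkd1*, whose products damp the signal. In the hippocampus the pathway is known for its role in the expansion of progenitors and in the formation of dentate granule cells. Protein amounts, on which beta-catenin control mainly acts, were not measured here.

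The sequence bound by TCF and LEF factors was searched in the genome around the start of the canonical transcript of each gene, because 4 of the 10 genes encode these factors and others are known targets. The motif was CTTTGAT on either strand, within 1000 bases on each side of the start in GRCm39. It was found in *Axin2*, *Tcf7* and *Nkd1*, with 2 matches each, and in none of the other 7 windows. Of the windows of 14447 genes tested, 20.1% held at least 1 match and 2.34% held at least 2. The 6 matches are printed 5' to 3' along the strand of the gene, with the motif or its reverse complement in capitals and 11 bases on each side in lower case.
Axin2, position -385: agccggctgcgCTTTGATaaggtcctggc
Axin2, position 420: cggccggcgcgCTTTGATgtgcggggcgg
Tcf7, position -673: aggcctggtctCTTTGATcctccgccagg
Tcf7, position 418: gcccgcggtgcCTTTGATgttccgacccg
Nkd1, position -735: aactaagaaagATCAAAGatccggcggtt
Nkd1, position -26: gtccgcctcgcCTTTGATgggccgctgcc

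Positions are counted from the transcript start to the first base in capitals. The stretches of *Axin2* lie on the plus strand at chr11:108811242-108811270, in an exon and UTR of transcripts of *Axin2* that begin farther upstream, and at chr11:108812047-108812075, in an intron of *Axin2*. Those of *Tcf7* lie on the minus strand, at chr11:52175275-52175303 in exons of the neighbouring genes *A630014C17Rik* and *Gm57351*, and at chr11:52174184-52174212 in an exon and UTR of *Tcf7*. Those of *Nkd1* lie on the plus strand, at chr8:89247179-89247207 in an intron of *Gm35162*, and at chr8:89247888-89247916 in an exon and UTR of an *Nkd1* transcript that begins farther upstream. A match is a description of letters and not a measured site of binding. This window and motif were chosen after a search of the 250 bases before the RefSeq starts (GRCm38.p6) for CTTTGA, in which the first listed promoter of each gene was counted. CTTTGA was held by 1 of 8 members with an entry, *Gsk3b*, and by 10.4% of the promoters of 10586 genes tested. Another listed start of *Lef1* held 2 matches to it and was not counted. The longer CTTTGAT was held there by 0 of 8 members and by 2.16% of the promoters of genes tested.

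**Figure D1:**
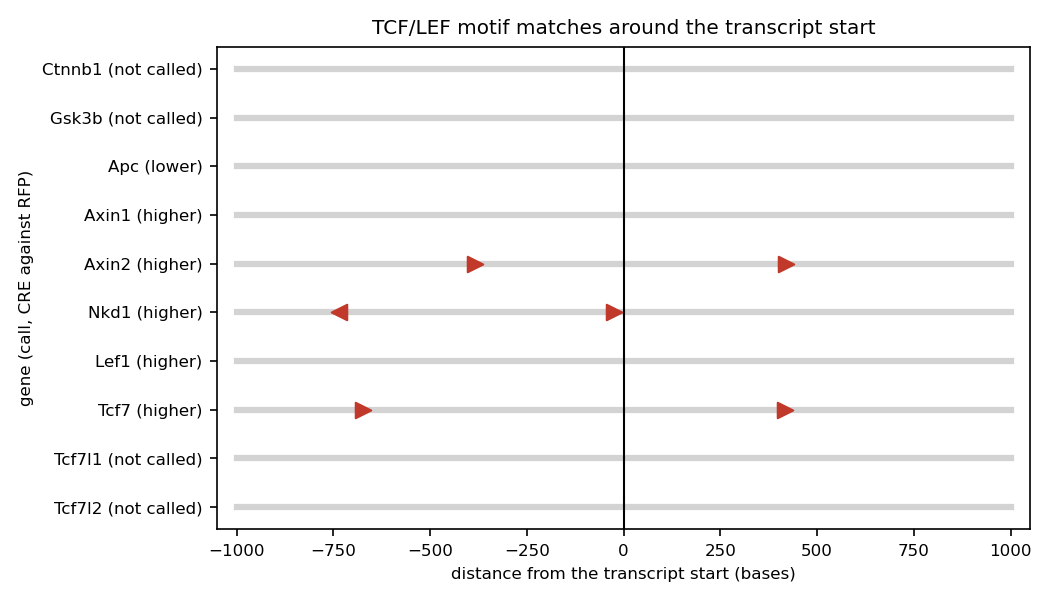
Matches to the TCF/LEF motif (triangles, pointing right where the motif reads along the gene and left where its reverse complement does) by distance from the transcript start in bases, for the 10 genes with their call between CRE and RFP libraries. *Axin2*, *Nkd1* and *Tcf7* have 2 matches each, and the other 7 genes have none in this window.

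*Nedd8* itself stood at 11.5 ± 3.49 CPM (SD, n = 11) in CRE and 61.4 ± 10.2 CPM (SD, n = 10) in RFP libraries, with no overlap between the groups. CPM here are counts adjusted for library size and by TMM factors, which correct for differences in composition. Totals of the 21 libraries ran from 7430401 to 17112815 counts. Among all 23 libraries, 4 stood apart: Cre3-3 had 1546796 counts and a mitochondrial share of 1.83%, Cre1-3 had a mitochondrial share of 0.261%, RFP2-4 had one of 3.43%, and RFP3-2 held 24.2% of its counts in *Rn18s-rs5*. The other 19 libraries had mitochondrial shares above those of Cre3-3, Cre1-3 and RFP2-4, up to 11.1%. Cre1-3 and RFP2-4 were part of the comparison, although the methods of the study name Cre1-3 beside Cre3-3 as removed, and values without all 4 libraries are given as those of 19 libraries.

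With edgeR's quasi-likelihood test and a Benjamini-Hochberg adjusted p under 0.05, 5 of the 10 genes rose in CRE libraries (*Axin1*, *Axin2*, *Nkd1*, *Lef1* and *Tcf7*) and 1 fell (*Apc*). The background was high: 30.2% of all genes tested passed in either direction, 16.4% higher and 13.8% lower. A log2 fold change above 1.3 was seen for *Axin2*, *Lef1*, *Tcf7* and *Nkd1*, against 5.34% of all genes. Past this fold together with a -log10 adjusted p above 6 was 1 gene, *Axin2*, against 1.39% of all genes. Over 19 libraries 7 genes passed, 5 higher and 2 lower, with *Gsk3b* added, where 38.1% of all genes passed, 19.4% higher and 18.7% lower. The values of each library are shown in the plot of levels by library, and the differences in the plot of fold changes.

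**Figure D2:**
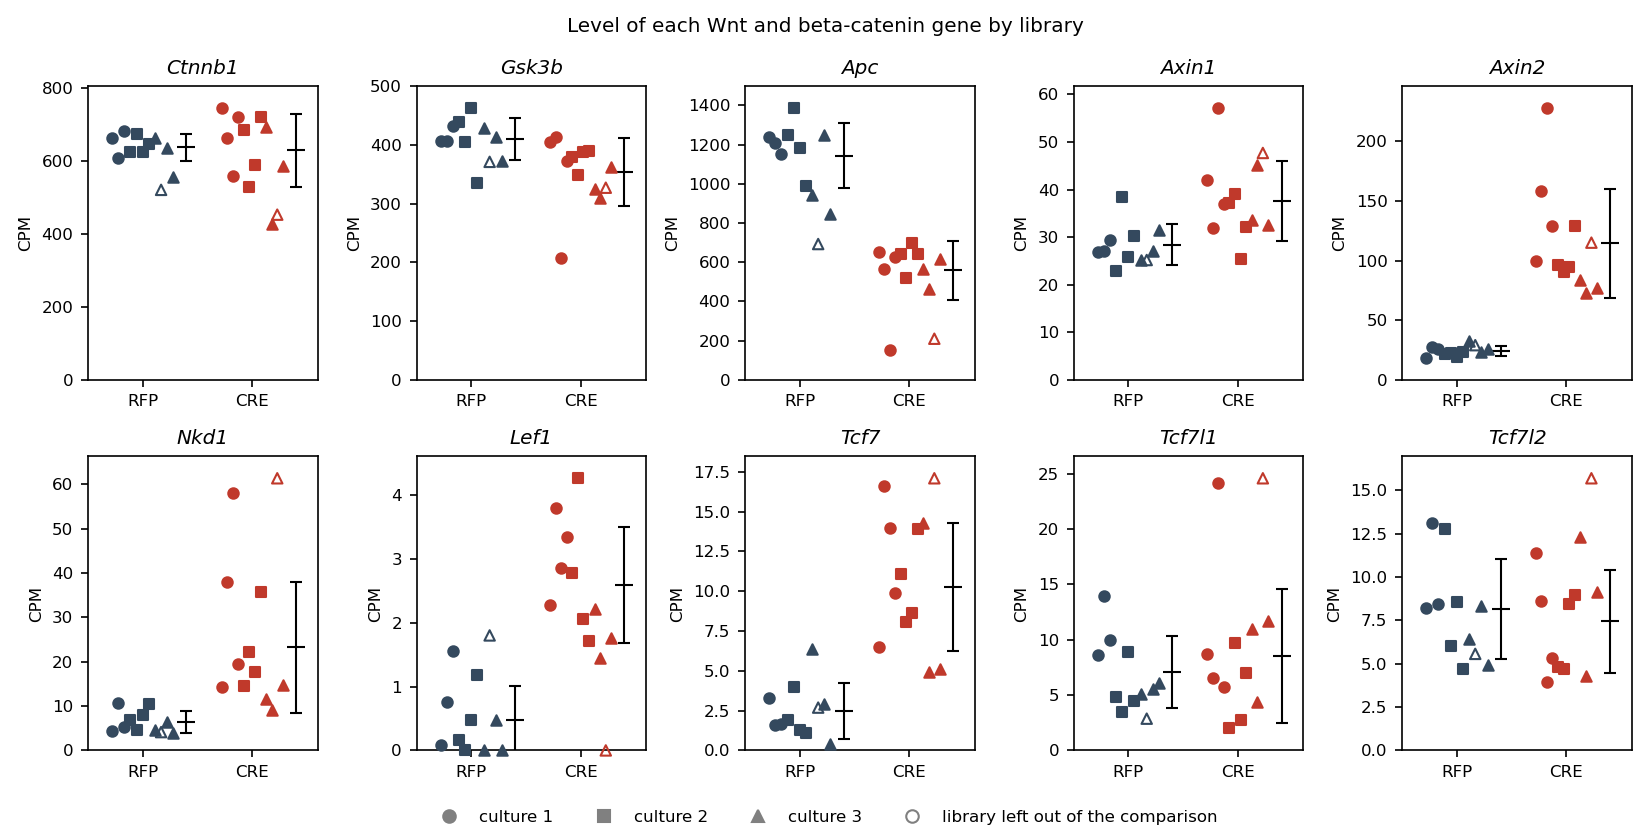
CPM of the 10 genes in each of the 23 libraries, RFP in blue and CRE in red, with a symbol for each culture, open symbols for Cre3-3 and RFP3-2, and a bar for the mean and SD of the 21 libraries compared. The CRE libraries of *Axin2* lie above and those of *Apc* below every RFP library compared, while the groups of *Ctnnb1*, *Tcf7l1* and *Tcf7l2* overlap.

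*Ctnnb1*, which encodes beta-catenin (ENSMUSG00000006932, chromosome 9 of GRCm39 from 120757422 to 120789579, plus strand), ran from 427 to 746 CPM in CRE libraries with a median of 662, and from 556 to 681 CPM in RFP libraries with a median of 640.3. Of the CRE values 5 exceeded the highest and 2 were under the lowest RFP value, so that the CRE values were spread around those of RFP. The means were 629 ± 99.0 CPM (SD, n = 11) and 638 ± 37.2 CPM (SD, n = 10), with a log2 fold change of -0.04 (standard error 0.09, edgeR adjusted p = 0.791). Its 95% interval, from -0.23 to 0.15, leaves room for a small difference in either direction. For the culture numbers 1, 2 and 3 the ratios of mean CRE to mean RFP level were 1.03, 0.982 and 0.921. Here and below, such ratios set libraries of 1 number side by side, and the number was not taken to pair the groups.

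Of the genes of the destruction complex, *Apc* fell and *Axin1* rose. *Apc*, a scaffold of the complex (ENSMUSG00000005871), stood at 152 CPM in Cre1-3 and at 463 to 699 CPM in the other CRE libraries compared, and at 847 to 1388 CPM in RFP libraries. The groups did not overlap, with all 11 CRE libraries lower, which was so for 2.08% of all genes. The mean fell from 1144 ± 166 CPM (SD, n = 10) to 559 ± 151 CPM (SD, n = 11), a log2 fold change of -1.05 (standard error 0.17, edgeR adjusted p = 2.88e-05), and over 19 libraries the log2 fold change was -0.97. The CRE to RFP ratios of cultures 1, 2 and 3 were 0.417, 0.521 and 0.543. Of the libraries left out, Cre3-3 held 210.1 CPM and RFP3-2 held 693 CPM, the latter below the highest CRE library.

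*Axin1*, the scaffold present in most cell types (ENSMUSG00000024182, chromosome 17 from 26350235 to 26414789), ran from 25.4 to 57.2 CPM in CRE libraries (median 36.9) and from 22.9 to 38.5 CPM in RFP libraries (median 27.0). The groups overlapped, and 4 of the CRE values exceeded the highest RFP value. Its log2 fold change was 0.38 (standard error 0.13, edgeR adjusted p = 0.0279), a call that was lost in 7 of 15 alternatives.

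*Gsk3b*, a kinase that phosphorylates beta-catenin (ENSMUSG00000022812, chromosome 16 from 37909363 to 38066446), ran from 208 to 413 CPM in CRE libraries (median 373) and from 335 to 463 CPM in RFP libraries (median 410.0). The lowest value was that of Cre1-3. The log2 fold change of -0.23 (standard error 0.10, edgeR adjusted p = 0.0902) did not pass, while over 19 libraries it was -0.20 (edgeR adjusted p = 0.0150).

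*Axin2* and *Nkd1* are feedback genes: both are known to be switched on by beta-catenin, and their products oppose it. *Axin2*, a relative of *Axin1* (ENSMUSG00000000142, chromosome 11 from 108811169 to 108841609, plus strand), stood in culture 1 at 99.5, 158, 228 and 129 CPM in Cre1-1 to Cre1-4. The CRE libraries of culture 2 held 96.2, 90.5, 94.7 and 129 CPM, and Cre3-1, Cre3-2 and Cre3-4 held 84.1, 72.4 and 76.9 CPM. The RFP libraries ran from 18.7 to 33.0 CPM with a median of 23.6. The groups did not overlap, with every CRE library higher, a pattern shared by 2.64% of all genes, and the highest value was that of Cre1-3. The mean rose from 24.2 ± 4.19 CPM (SD, n = 10) to 114 ± 45.6 CPM (SD, n = 11), 4.65-fold in the edgeR fit, with a log2 fold change of 2.22 (standard error 0.18, edgeR adjusted p = 1.00e-09). The ratio of the cultures numbered 1, 2 and 3 was 6.40, 4.69 and 2.82. Over 19 libraries the log2 fold change was 2.07 (edgeR adjusted p = 5.87e-12), and Cre3-3, which was left out, held 115 CPM.

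*Nkd1*, which binds Dishevelled (ENSMUSG00000031661, chromosome 8 from 89247890 to 89324577, plus strand), stood at 14.3, 38.1, 58.0 and 19.6 CPM in Cre1-1 to Cre1-4. The CRE libraries of culture 2 held 14.6, 22.2, 17.8 and 35.7 CPM, and Cre3-1, Cre3-2 and Cre3-4 held 11.5, 9.02 and 14.8 CPM. RFP libraries ran from 3.93 to 10.6 CPM with a median of 5.83. All but Cre3-2 exceeded the highest RFP value, and the spread within CRE was wide. The log2 fold change was 1.81 (standard error 0.30, edgeR adjusted p = 4.03e-05), with ratios of 4.79, 3.04 and 2.39 in cultures 1, 2 and 3. Without the libraries that stood apart, among them Cre1-3, it was 1.68 (edgeR adjusted p = 6.14e-06).

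Within the libraries, levels per kilobase of exon sequence allow the genes to be compared with each other. *Axin2* and *Axin1* stood at like levels in RFP libraries, with a ratio of *Axin2* to *Axin1* between 0.650 and 1.47 and a median of 0.951. In CRE libraries the ratio ran from 1.78 to 5.51 with a median of 2.90, so that *Axin2* RNA exceeded *Axin1* RNA in all 11 libraries, against 3 of 10 RFP libraries. The ratio of *Apc* to *Ctnnb1* had a median of 0.853 in RFP libraries (from 0.647 to 0.935). In CRE libraries the median was 0.405 (from 0.124, in Cre1-3, to 0.538). These ranges did not overlap, as was so for *Apc* alone, and the share of gene pairs with such a pattern was not computed.

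**Figure D3:**
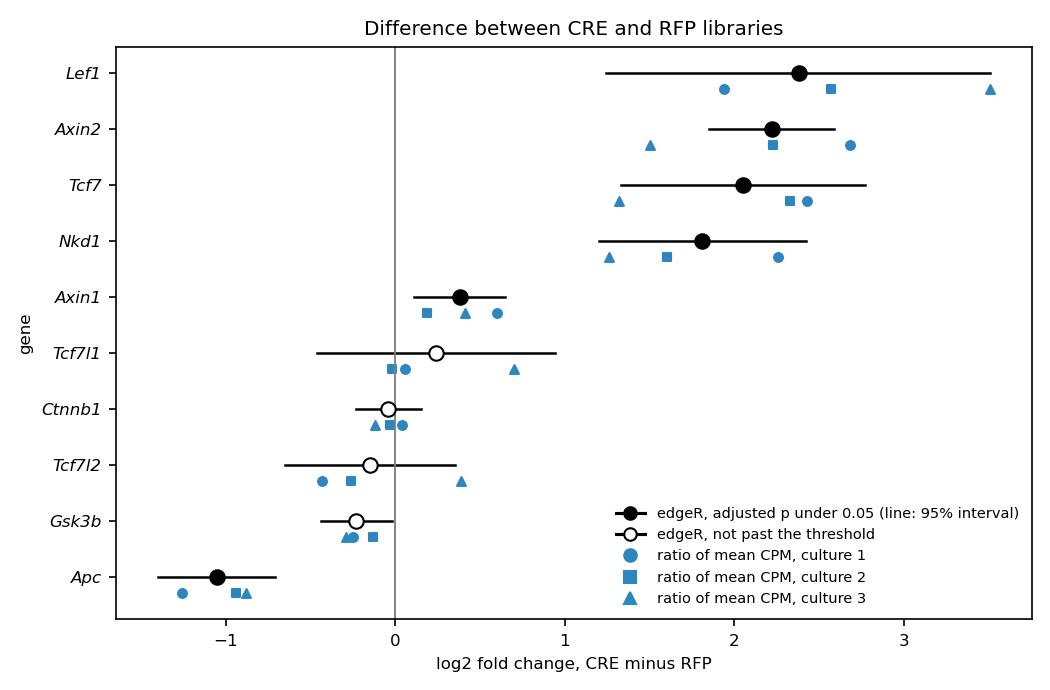
Circles give the log2 fold change of the 10 genes, CRE minus RFP, from edgeR over 21 libraries. They are filled where the adjusted p is under 0.05, and lines give the unadjusted 95% interval. Blue symbols give the log2 ratio of mean CPM between CRE and RFP libraries of 1 culture number. The number was not taken to pair the groups. *Lef1*, *Axin2*, *Tcf7* and *Nkd1* lie to the right of 1.3 and *Apc* at -1.05, and these 5 have the same direction for all 3 numbers.

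Of the 4 factors that bring beta-catenin to DNA, *Lef1* and *Tcf7* rose, and *Tcf7l1* and *Tcf7l2* did not pass the test. The differences between the 4 fold changes were not tested. *Lef1* (ENSMUSG00000027985, chromosome 3 from 130903919 to 131018005, plus strand) is known as an activator and is itself a frequent Wnt target. It stood at 2.28, 3.80, 2.86 and 3.34 CPM in Cre1-1 to Cre1-4, at 2.78, 4.26, 2.05 and 1.72 CPM in the CRE libraries of culture 2, and at 2.21, 1.44 and 1.76 CPM in Cre3-1, Cre3-2 and Cre3-4. RFP libraries ran from 0 to 1.56 CPM with a median of 0.321. All but Cre3-2 exceeded the highest RFP value. RFP3-2, which was left out, held 1.80 CPM, more than 3 of the CRE libraries compared, and over all 23 libraries 8 of 12 CRE libraries exceeded the highest RFP value. These are few reads, 14 to 56 counts per CRE library and 0 to 22 per RFP library, and *Lef1* passed the filter on low counts through the CRE libraries. The log2 fold change was 2.38 (95% interval 1.24 to 3.51, edgeR adjusted p = 0.00167). Cre3-3 had 0 of its 1546796 counts in *Lef1*, which by counting error alone allows up to 1.94 CPM unadjusted by TMM, within the range of the other CRE libraries. Exons of *Lef1* share 1518 bases with *Lef1os1* on the opposite strand, and the strand setting of the counting is not given in the sources used here, so reads of both genes may not be told apart.

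*Tcf7*, which encodes TCF1 (ENSMUSG00000000782, chromosome 11 from 52143107 to 52174619, minus strand), stood at 6.52, 16.6, 14.0 and 9.87 CPM in Cre1-1 to Cre1-4. The CRE libraries of culture 2 held 11.1, 8.06, 8.62 and 13.9 CPM, and Cre3-1, Cre3-2 and Cre3-4 held 14.3, 4.92 and 5.11 CPM. RFP libraries ran from 0.404 to 6.40 CPM with a median of 1.78, and 9 of 11 CRE libraries lay above all of them. The exceptions were Cre3-2 and Cre3-4, which fell below RFP3-1 of the same culture number. The log2 fold change was 2.05 (standard error 0.35, edgeR adjusted p = 7.08e-05), with ratios of 5.40, 5.02 and 2.50 in cultures 1, 2 and 3.

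*Tcf7l1*, which encodes TCF3, known mainly as a repressor (ENSMUSG00000055799, chromosome 6), ran from 2.04 to 24.2 CPM in CRE and from 3.49 to 14.0 CPM in RFP libraries. Its medians were 6.97 and 5.80 CPM, and the log2 fold change was 0.24 (95% interval -0.46 to 0.94, edgeR adjusted p = 0.647). Its highest CRE value was again that of Cre1-3, and the direction turned over 19 libraries, to -0.11. *Tcf7l2*, which encodes TCF4 (ENSMUSG00000024985, chromosome 19), had medians of 8.45 CPM in CRE and 8.25 CPM in RFP libraries and a log2 fold change of -0.15 (95% interval -0.65 to 0.35, edgeR adjusted p = 0.697). For both genes these intervals are too wide to show that the groups are alike.

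As a share of the summed level of the 4 factors per kilobase, *Tcf7* made up a median of 16.6% in RFP libraries (from 5.78 to 49.7%) and 50.0% in CRE libraries (from 27.8 to 70.2%). The median share of *Lef1* was 1.14% in RFP and 5.57% in CRE libraries. The median share of *Tcf7l1* was 47.9% in RFP and 28.3% in CRE libraries, and that of *Tcf7l2* was 29.9% and 16.3%. Shares of 1 library add up to the whole, so higher shares of *Tcf7* and *Lef1* lower those of *Tcf7l1* and *Tcf7l2*. The levels of *Tcf7l1* and *Tcf7l2* themselves did not pass the test. The ranges of *Tcf7* overlapped, with RFP2-2 and RFP3-1 the RFP libraries of the highest share.

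**Figure D4:**
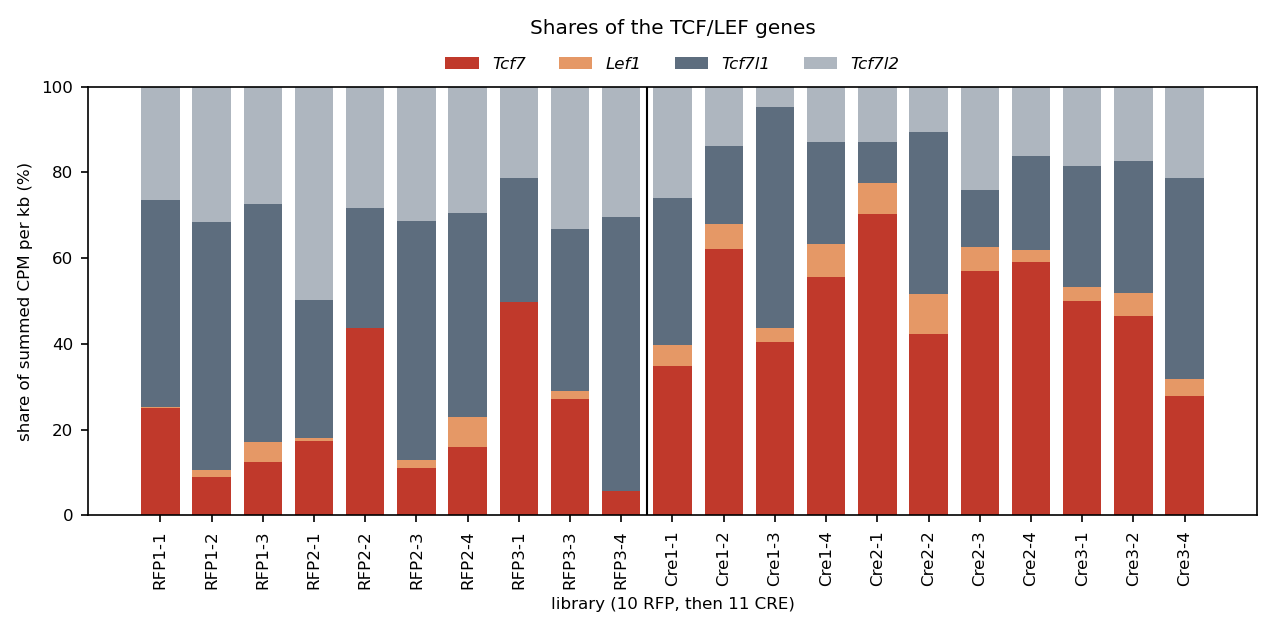
Share of each TCF/LEF gene in the summed CPM per kilobase of the 4 genes (percent) in the 10 RFP and 11 CRE libraries. *Tcf7* (red) has a median share of 16.6% in RFP and 50.0% in CRE libraries, and *Tcf7l2* (light grey) of 29.9% and 16.3%. The shares of a library add up to the whole, and the level of *Tcf7l2* itself did not pass the test.

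In the order of levels per kilobase, RFP libraries had *Ctnnb1* first with a median of 78.4 CPM per kilobase, then *Apc* with 66.5, *Gsk3b* with 41.7, *Axin1* with 3.49, *Axin2* with 3.40, *Tcf7l1* with 1.11, *Tcf7l2* with 0.920, *Nkd1* with 0.706, *Tcf7* with 0.462 and *Lef1* with 0.0344. The ranges of neighbours overlapped except between *Apc* and *Gsk3b*, *Gsk3b* and *Axin1*, and *Axin2* and *Tcf7l1*. In CRE libraries the order was *Ctnnb1* with 81.0, *Gsk3b* with 37.9, *Apc* with 34.4, *Axin2* with 13.9, *Axin1* with 4.77, *Tcf7* with 2.57, *Nkd1* with 2.16, *Tcf7l1* with 1.34, *Tcf7l2* with 0.943 and *Lef1* with 0.244. There the ranges of neighbours were apart only between *Ctnnb1* and *Gsk3b* and between *Axin2* and *Axin1*. *Lef1* was the lowest in both groups.

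Beyond the 10 genes, 115 other genes of the pathway were listed, of which 95 passed the filter on low counts. Of these, 29 rose and 14 fell in CRE libraries, with a median log2 fold change of 0.17, against 0.02 over all genes. The share that rose was 30.5%, against 16.4% of all genes, and the share that fell was 14.7%, near the 13.8% of all genes. Over 19 libraries 31 rose and 19 fell, where 19.4% of all genes rose and 18.7% fell. CRE was higher without overlap for 5 of the 95 genes, *Fzd1*, *Fzd10*, *Lgr6*, *Notum* and *Sp5*, against 2.64% of all genes, and lower without overlap for 1, *Rspo2*, against 2.08%. RFP libraries held only 0 to 24 counts of *Fzd10*, 0 to 44 of *Lgr6*, 0 to 20 of *Notum* and 0 to 9 of *Sp5*. These genes passed the filter on low counts through the CRE libraries, so their lack of overlap follows in part from the filter. Their fold changes rest on few RFP counts.

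Of 16 classical target genes tested, 6 rose and 4 fell, 62.5% in either direction against 30.2% of all genes. *Sp5*, a transcription factor gene that is among the most direct Wnt targets, ran from 3.35 to 29.7 CPM in CRE libraries with a median of 8.11, and from 0 to 0.818 CPM in RFP libraries with a median of 0. RFP libraries held at most 9 counts of *Sp5* and CRE libraries at least 40, with a log2 fold change of 6.52 (95% interval 5.15 to 7.89, edgeR adjusted p = 4.71e-08). *Ccnd1*, which encodes cyclin D1, rose from a median of 144 to 542 CPM (log2 fold change 1.65), *Cd44*, a hyaluronan receptor, from 8.95 to 31.2 CPM (1.67), and *Tnfrsf19* from 90.9 to 180.0 CPM (0.89). Not all known targets went this way. *Lgr5*, a receptor for R-spondins and a marker of Wnt-driven stem cells, fell from a median of 4.19 to 0.366 CPM (log2 fold change -2.35, edgeR adjusted p = 0.00808). *Nkd2*, the relative of *Nkd1*, fell from 26.1 to 12.5 CPM, *Bmp4* from 3.75 to 0.531 CPM (-1.82) and *Fst* from 10.5 to 5.84 CPM (-0.76). *Nkd1* and *Nkd2* thus changed in opposite directions, as did *Lgr6* and *Lgr5*. CRE libraries held 0 to 41 counts of *Lgr5* and 0 to 38 of *Bmp4*, against 9 to 100 and 3 to 116 in RFP. Their fold changes rest on few CRE counts, and *Lgr5* passed the filter on low counts mainly through the RFP libraries.

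Of 21 receptor and R-spondin genes tested, 11 rose and 2 fell, with a median log2 fold change of 0.93. These are 52.4% higher and 9.52% lower, against 16.4% and 13.8% of all genes. Among the 10 Frizzled genes, which encode the receptors that bind Wnt, 8 rose, and *Fzd3* and *Fzd9* did not pass. *Fzd1* rose from a median of 29.5 to 99.3 CPM (log2 fold change 1.86, edgeR adjusted p = 9.91e-10), *Fzd7* from 9.43 to 28.6 CPM (1.39), and *Fzd10* from 0.508 to 13.6 CPM (4.65). *Lgr6*, another R-spondin receptor, rose from 0.800 to 38.4 CPM (log2 fold change 5.19, edgeR adjusted p = 1.07e-08). Of the R-spondins, which strengthen Wnt signals at the membrane, *Rspo3* rose from 21.5 to 53.8 CPM (1.15) and *Rspo2* fell from 26.0 to 11.5 CPM (-1.40). The coreceptor gene *Lrp5* rose by 0.86 on the log2 scale, while *Lrp6* was at 67.6 ± 12.3 CPM (SD, n = 11) in CRE and 69.6 ± 9.97 CPM (SD, n = 10) in RFP libraries.

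Of 13 tested genes of secreted and membrane inhibitors, 6 rose and the other 7 did not pass, a share of 46.2% higher against 16.4% of all genes. *Notum*, an enzyme that removes the lipid from Wnt proteins and is itself a Wnt target, ran from 2.43 to 9.67 CPM in CRE and from 0 to 1.58 CPM in RFP libraries (log2 fold change 3.76, edgeR adjusted p = 9.36e-05). *Kremen1*, a receptor for DKK proteins, rose from a median of 14.4 to 34.0 CPM (1.07), and the Wnt-binding genes *Sfrp4* and *Frzb* rose from 0.707 to 3.18 CPM (2.00) and from 14.2 to 20.4 CPM (0.68). *Rnf43*, whose product removes Frizzled receptors from the membrane, rose by 1.14 on the log2 scale.

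Of 10 genes of Wnt ligands and their export tested, 2 rose and 3 fell. The shares were 20.0% higher and 30.0% lower, against 16.4% and 13.8% of all genes. *Wls*, the carrier that brings Wnt proteins to the cell surface, rose from a median of 28.4 to 59.6 CPM (log2 fold change 0.98), and *Wnt5a* from 54.5 to 75.8 CPM (0.38). *Wnt4* fell from 26.1 to 9.25 CPM (-1.55), *Wnt7b* from 111 to 55.3 CPM (-0.93), and *Porcn*, the enzyme that adds the lipid to Wnt proteins, from 40.0 to 26.3 CPM (-0.60).

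Of 20 genes of Dishevelled, the partners of the destruction complex and beta-TrCP tested, 2 rose and 4 fell, a share of 30.0% that is near that of all genes. The beta-TrCP genes *Btrc* and *Fbxw11* did not pass, at 41.2 ± 7.05 and 176 ± 25.5 CPM (SD, n = 11) in CRE and 36.2 ± 5.35 and 177 ± 17.3 CPM (SD, n = 10) in RFP libraries. *Apc2*, the neuronal relative of *Apc*, had a log2 fold change of -0.04 (standard error 0.19, edgeR adjusted p = 0.915). *Gsk3a* fell by 0.39 on the log2 scale and the casein kinase gene *Csnk1a1* by 0.29, and *Amer2*, a partner of APC, by 0.25. *Csnk1d* rose by 0.28 and *Ppp2r5a*, a phosphatase subunit gene, by 0.42, and the fourth gene that fell was *Nkd2*. Of 16 genes of nuclear partners, 1 rose and 2 fell, a share of 18.8%, under the 30.2% of all genes. The corepressor gene *Tle1* rose (0.48). *Ctnnbip1* (-0.73), whose product keeps beta-catenin from TCF factors, and *Pygo1* (-0.52) fell. Of 6 genes of catenins and adherens partners, 3 rose and 1 fell, a share of 66.7% against the 30.2% of all genes. *Ctnna1* (0.97), *Jup* (0.87) and *Ctnnd1* (0.44) rose, and *Ctnna2* (-0.38), the neuronal alpha-catenin, fell.

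**Figure D5:**
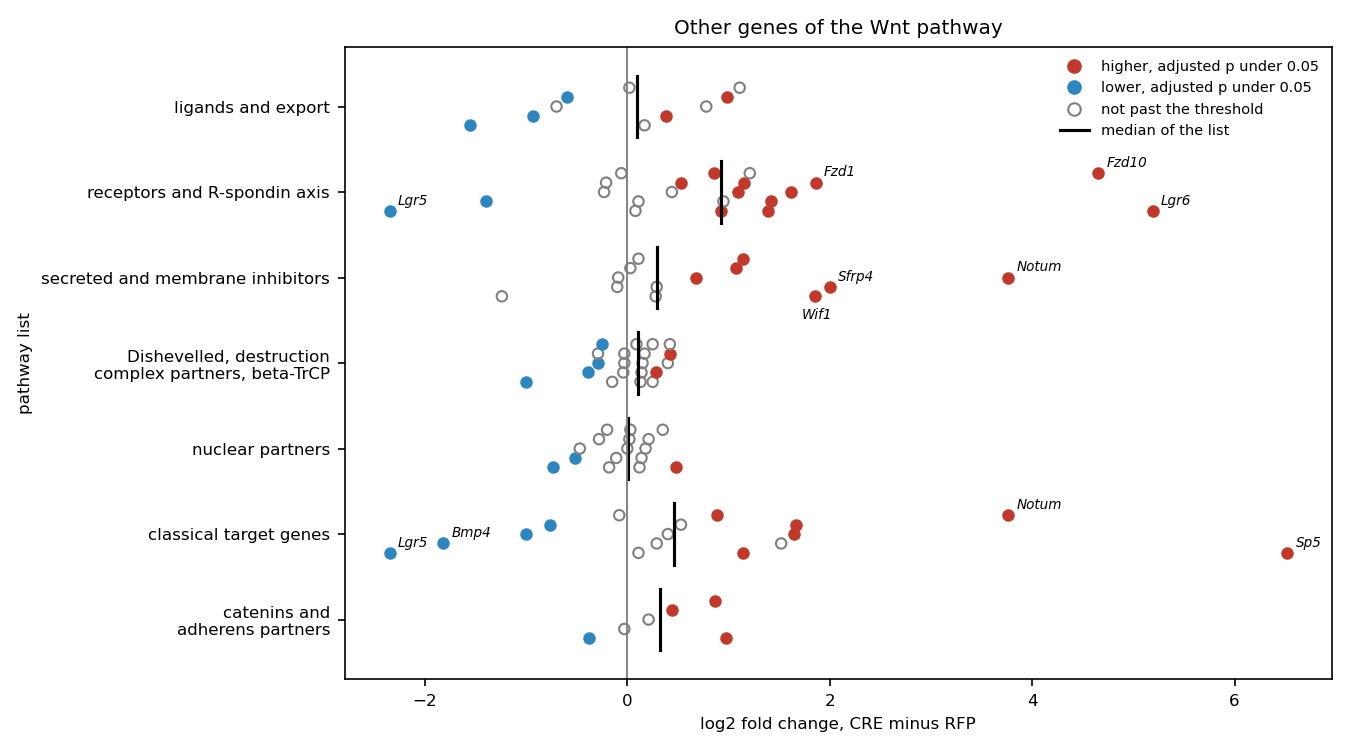
Log2 fold change, CRE minus RFP, of the other pathway genes tested, by list (a gene may stand in 2 lists), red for those that rose and blue for those that fell at an edgeR adjusted p under 0.05, with the median of each list as a black line. The receptor list has a median of 0.93, and the lists of nuclear partners and of complex partners have medians of 0.01 and 0.11.

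Summed levels of marker genes moved along with these results, and their part in them was not tested. In bulk RNA, fewer cells of a type and less RNA per cell cannot be told apart. The 8 neuron markers summed to a median of 4491 CPM in CRE libraries (from 2579 to 5471) and 6526 CPM in RFP libraries (from 5756 to 6859), with 5 of 8 lower and the other 3 not past the threshold. The 8 genes of dividing cells and progenitors summed to 1655 CPM in CRE (from 1015 to 2792) and 592 CPM in RFP libraries (from 483 to 725), and here *Nes*, *Vim* and *Pax6* rose while the division genes *Mki67*, *Top2a* and *Cdk1* and the progenitor gene *Hes5* fell. Cre1-3, with the highest *Axin2* and *Nkd1* and the lowest *Apc*, had the lowest sum of neuron markers and the highest sum of this list. That sum is not one of division genes. The lowest CRE values of *Mki67*, *Top2a* and *Cdk1* were 0.136, 1.36 and 0.409 CPM, at 1, 10 and 3 counts. By their CPM per count these are the values of Cre1-3. *Nes* alone had a median of 1070.3 CPM in CRE libraries.

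Astrocyte markers summed to a median of 3489.9 CPM in CRE (from 1027 to 3857) and 3769 CPM in RFP libraries (from 2263 to 5511), with 2 of 8 genes higher and 3 lower. The oligodendrocyte lineage stood at 798 CPM (from 425 to 1909.9) and 1500.3 CPM (from 647 to 1867), with 5 of 8 genes lower. Mesenchymal genes stood at 285 CPM (from 84.6 to 482) and 88.6 CPM (from 21.9 to 179.6), with 2 of 8 higher, *Rgs5* and *Pdgfrb*. *Rgs5* alone rose from a median of 21.5 to 147 CPM. The other 6 did not pass, and the median of *Dcn* was lower in CRE (8.34 against 28.7 CPM). Dentate granule markers stood at 166 CPM (from 66.9 to 224) and 262 CPM (from 146 to 303), with 3 of 4 lower. GABA neuron markers stood at 1236 CPM (from 800.3 to 1766) and 1355 CPM (from 1064 to 2270.2), with 3 of 8 higher and 2 lower. The 5 thalamic neuron markers stood at 70.2 CPM (from 33.0 to 107) and 35.2 CPM (from 27.4 to 53.9), and 3 of them were tested. Only *Slc17a6* rose, from a median of 11.6 to 34.0 CPM, while *Lhx9* and *Ntng1* did not pass. The study reports *Slc17a6*, the gene of vGlut2, as raised by the loss of Nedd8 in its hippocampal cultures. Microglia markers summed to a median of 3.94 CPM in CRE (from 0.256 to 7.70) and 2.29 CPM in RFP libraries (from 1.09 to 6.56), with *Cx3cr1*, *Aif1*, *C1qa*, *C1qb* and *Itgam* at a median under 0.1 CPM over the 21 libraries. Endothelial markers summed to 3.59 CPM (from 1.09 to 10.9) and 5.85 CPM (from 2.75 to 9.85), with *Cldn5*, *Tek* and *Tie1* at such a median under 0.1 CPM.

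Within conditions, after the group means were subtracted from log2 CPM, the genes whose levels followed *Axin2* most closely over 21 libraries were *Cachd1* (Pearson r = 0.84), *Elmo2* (0.83), *Hspb6* (0.82), *Cdc42ep4* (0.82) and *Gnao1* (0.82). Over 19 libraries these values were 0.69, 0.71, 0.77, 0.68 and 0.65. Among the members, *Nkd1* came closest to *Axin2*, with an r of 0.70 over 21 and 0.58 over 19 libraries. *Apc* stood at -0.62 over 21 but at -0.08 over 19 libraries, so that this value rests on libraries that stood apart. For *Lef1*, whose counts were few, the closest genes were *Prkag2* (0.75), *Rbpms2* (0.75), *Gm6598* (0.72), *Gm20632* (0.69) and *Slc29a3* (0.69). Among the members *Nkd1* came closest to *Lef1*, with an r of 0.48 over 21 and 0.48 over 19 libraries, and *Axin2* had an r of 0.13 with *Lef1* over 21 libraries. Libraries of 1 number may share a culture, and these values are descriptions of the spread within groups.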

How the data were processed

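RNA of 23 libraries had been sequenced by the study from an Illumina stranded mRNA preparation. The submitters' processing notes name bcl2fastq 2.20.0.422, STAR 2.7.8a and featureCounts 1.5.0-p1 with the build GRCm39. The authors deposited raw counts per gene and library, without normalization. The strand setting and the treatment of multi-mapping reads are not given in the sources used here. Besides *Lef1*, exons of 7 of the 10 genes share bases with a gene on the opposite strand (765 bases with *Ulk4* for *Ctnnb1*, 108 to 242 for the other 6).

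Genes were named with the GENCODE annotation of GRCm39. Counts of 21 libraries were tested with edgeR 4.0.16 in R 4.3.3 (filterByExpr, TMM, robust glmQLFit, glmQLFTest, condition as the only term), with Benjamini-Hochberg adjustment over 14488 genes. The set of libraries was that of the count table of the study, whose methods name another pair, Cre1-3 and Cre3-3, as left out. CPM used TMM factors over the 14382 genes that passed in all 23 libraries. Lengths are unions of exons. DESeq2 1.42.0 was an alternative, and 15 alternatives were run in all. Both tools were tested on simulated data.

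The 10 genes and all lists were chosen with earlier results of these data known. All 10 genes are named, as are from each pathway list up to 4 genes past the threshold in each direction by smallest p, with *Btrc*, *Fbxw11*, *Apc2* and *Gsk3a*. *Fzd3*, *Fzd9*, *Rspo3*, *Lrp5*, *Lrp6*, *Rnf43* and single marker genes fall outside this rule and were named after their values were seen.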

Additional observations from a re-analysis of the deposited data

How the results depend on the processing

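Over 15 alternatives to the choice of libraries, scaling, tool, filter, replicate unit, culture block and GC correction, *Axin2*, *Nkd1*, *Lef1*, *Tcf7* and *Apc* kept direction and call. Their log2 fold changes ran from 1.91 to 2.45, 1.48 to 2.04, 2.06 to 2.73, 1.86 to 2.35 and -1.14 to -0.88. The number of members called lay between 5 and 7. *Axin1* lost its call in 7 alternatives, with log2 fold changes from 0.27 to 0.52, and *Gsk3b* gained one in 3, with edgeR adjusted p-values of 0.0150 over 19 libraries, 0.00955 with the GC trend removed and 0.00757 with the culture block added to that. Directions without a call turned for *Ctnnb1* (0.02 over the 21 libraries left by the methods), *Tcf7l1* (-0.11 over 19 libraries) and *Tcf7l2* (0.01 over all 23 libraries and 0.01 without culture 1, the highest of -0.38 to 0.01 with a culture left out). The cause was not tested.

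Genes called numbered 6920 with no filter on low counts, which tests 32701 genes, and 2114 to 3730 with a culture left out, lowest without culture 2. The other pathway genes called numbered 22 to 34 with a culture left out, again lowest without culture 2. Members past a log2 fold change of 1.3 and a -log10 adjusted p of 6 numbered 3 with DESeq2, where 549 of all genes were past both, against 201 with edgeR. They numbered 0 with sums per culture, 0 with those sums and the culture as a block, and 0 to 1 with a culture left out. Few genes of any kind passed there, 5 and 61 with sums per culture and 0 to 96 with a culture left out, where 0 was reached without culture 2 by edgeR, although 4171 genes had an unadjusted p under 0.05.

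Cultures of the same number did not deviate together (r = 0.03, 0.04 and 0.14 over genes), so the number was not taken to pair CRE with RFP libraries. With culture as a replicate block 4267 genes were called, against 4370 without, and with library number as a block 4235. Both blocks left 6 members called. Depth limits *Lef1* most, at 0 to 22 counts per RFP library.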
